A study of Mus musculus with 4 samples.

Results

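The genes described here encode the constitutive proteasome and the proteins that regulate or assemble it. They were chosen by name, as the rows of the deposited liver RNA-Seq table whose symbol starts with Psma to Psmg and a digit, leaving out the immunoproteasome genes Psmb8, Psmb9 and Psmb10. This rule found 32 of the 7000 listed genes. The libraries came from livers of 4 male wild-type FVB/N mice kept for 6 weeks from weaning on torula yeast-based diets, 2 mice with 0 ppm Se added (0 Se, mice 1 and 2) and 2 mice with 0.1 ppm Se added as sodium selenite (0.1 Se, mice 4 and 5). The table gives 1 mean level per gene over the 4 libraries of both diets and 0 columns for single mice. Each level below is therefore the authors' mean, with no spread between mice, no depth per library and no test. The difference between the diets was not analysed here, because the table holds it only as the fold changes and p-values of the authors' own comparison. Neighbours in an order of levels are given as values, and whether they differ beyond the spread between mice was not tested.

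The proteasome is the protease that degrades ubiquitin-tagged proteins in the cytosol and nucleus. Its barrel-shaped core particle is a stack of alpha and beta rings, and the proteolytic sites lie on Psmb5, Psmb6 and Psmb7 inside the beta rings. The regulatory particle caps the core, with Psmc ATPases that unfold substrates and Psmd subunits that bind and trim ubiquitin chains. Psme proteins are alternative caps, and Psmg proteins and several Psmd proteins are assembly chaperones. Interferon induces the replacement of the catalytic subunits by Psmb9, Psmb10 and Psmb8.

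Levels are given as mean CPM (counts scaled to library size) and, where genes are compared, as CPM per kilobase of the listed mRNA, since a longer mRNA gives more reads per molecule. All 32 genes lay above the median of all listed genes, 6.19 CPM per kilobase, although on the CPM scale without division by length this held for 28. Per kilobase, 18 of them lay above the 90th percentile, 57.5 CPM per kilobase. The median over the 32 genes was 66.0 CPM per kilobase, and the range ran from 6.92 for Psmd10 to 165 for Psma4, a 23.9-fold span. The levels differed between the roles of the proteins. The core subunits were highest, with a median of 113 CPM per kilobase for 14 genes. The 3 activators had a median of 77.1, and the regulatory particle subunits had 39.5 for 10 genes. The chaperones were lowest, with 11.2 for 3 core assembly chaperones and 9.25 for 2 chaperones of the regulatory particle. Of the 10 genes with the highest levels, 9 encode core subunits. The gap between activators and regulatory particle rests on the length taken. With the longest annotated transcript their medians were 37.9 and 36.0 CPM per kilobase, and without division by length 75.3 and 65.0 CPM. Presence in the table is itself a selection. Its rows are in the order of the authors' p-values for the diet comparison and end at 7000, so the members listed are not all those expressed in liver.

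**Figure D1:**
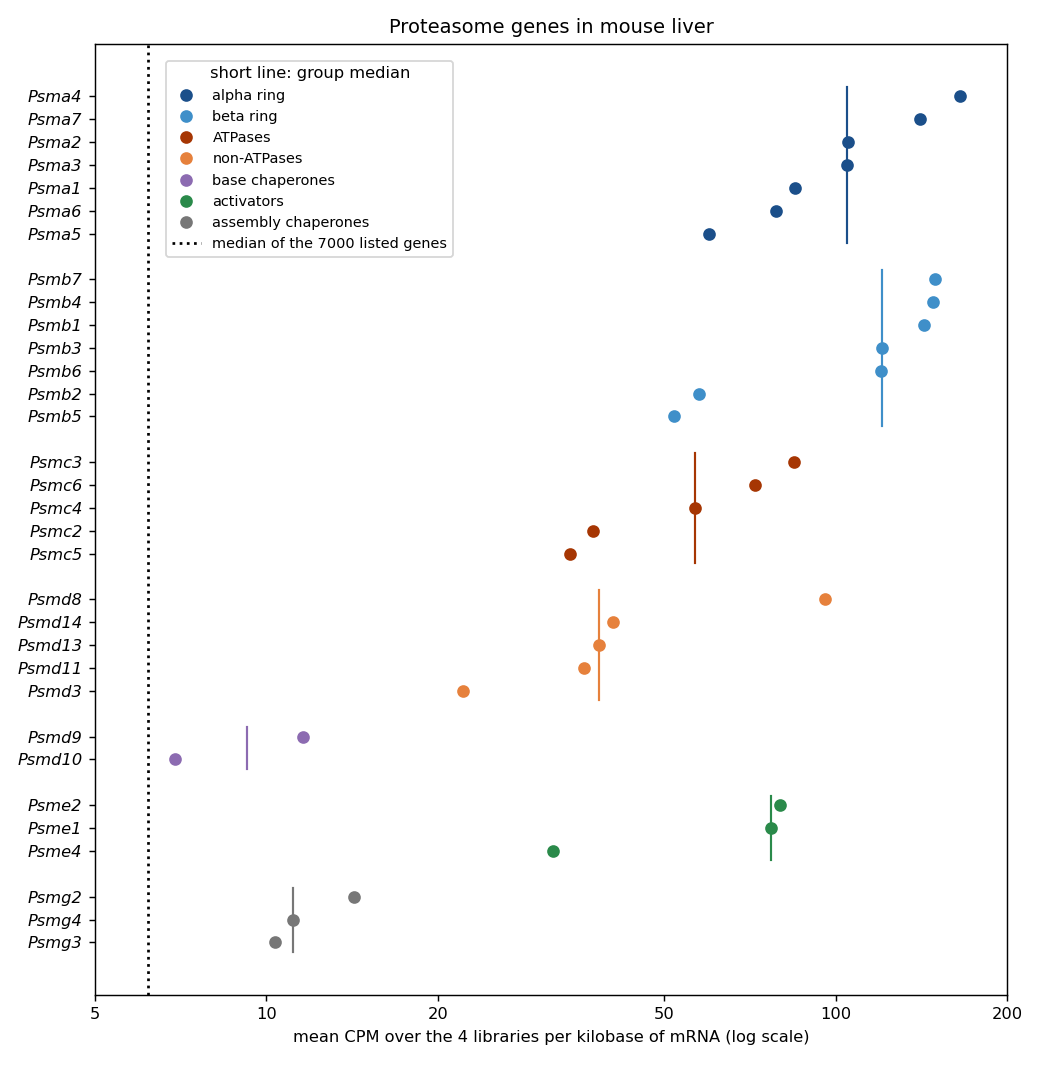
Mean CPM per kilobase of mRNA (log scale) of the 32 proteasome genes, 1 point per gene, grouped by role, with a short vertical line at each group's median and a dotted line at the median of all listed genes. The alpha and beta ring genes sit between 52.0 and 165 CPM per kilobase, and the chaperone genes sit between 6.92 and 14.2. No error bars are drawn because the table has no values for single mice.

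The alpha ring, which forms the gated ends of the core particle, was complete among the listed genes for the 7 subunits Psma1 to Psma7. Psma4, on chromosome 9 of NCBIM37 (mm9) from 54798597 to 54805837, had the highest level per kilobase of all members, 165 CPM per kilobase. Its CPM was 181. Psma7 followed with 141 CPM per kilobase. Psma2 and Psma3 had 105.1 and 104.7 CPM per kilobase. With the longest annotated transcripts these values were 37.3 and 52.2, and with the coding length 135 and 194, so these values rest on the length taken. Psma1 had 84.9, Psma6 had 78.5 and Psma5 had 59.9 CPM per kilobase. The 7 alpha subunits are present in equal numbers in each core particle, and their mRNA levels spanned 2.76-fold with the listed length. With the longest annotated transcript they ran from 37.3 for Psma2 to 155 CPM per kilobase for Psma4. With the coding length they spanned 2.29-fold.

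The beta ring was also complete for Psmb1 to Psmb7, with a span of 2.88-fold. With the listed length its levels formed a high set and a low set. Psmb7, Psmb4 and Psmb1 had 149.5, 148 and 143 CPM per kilobase, and Psmb3 and Psmb6 had 120.6 and 120.2. Psmb2 and Psmb5 lay well below these, at 57.5 and 52.0 CPM per kilobase, with no beta subunit between 57.5 and 120.2. With the longest annotated transcript Psmb3 was at 58.4 CPM per kilobase. Of these subunits, Psmb1, Psmb2, Psmb3 and Psmb4 are structural and carry no active site. The median of the beta ring was 121 CPM per kilobase, against 105 for the alpha ring.

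The catalytic subunits were not at equal levels. Psmb7, which carries the trypsin-like site, lies on chromosome 2 from 38443556 to 38499607 and had 145 CPM. Psmb6, which carries the caspase-like site, lies on chromosome 11 from 70338869 to 70341360 and had 125 CPM. Psmb5, which carries the chymotrypsin-like site, lies on chromosome 14 from 55232644 to 55236851 and had 45.3 CPM. Per kilobase, Psmb7 was 2.88-fold and Psmb6 2.31-fold above Psmb5, the lowest gene of the core particle with the listed length. With 3 other measures of length these folds ran from 2.40 to 3.05 for Psmb7 and from 2.29 to 3.05 for Psmb6.

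The subunits that replace these 3 in the immunoproteasome were listed too and were lower in each case. Psmb9, the replacement for Psmb6, had 20.9 CPM per kilobase, and Psmb6 was 5.76-fold higher. Psmb10 replaces Psmb7 and had 24.2 CPM per kilobase, 6.17-fold below Psmb7. Psmb8 replaces Psmb5 and had 33.8 CPM per kilobase, the highest of the immunoproteasome subunits opposite the lowest of the constitutive ones, so that Psmb5 was only 1.54-fold higher. That last fold was 1.14 with the coding length and 2.40 with the longest annotated transcript. For Psmb6 over Psmb9 it was 6.81 and 22.1 with the same lengths. Whole liver holds hepatocytes and other cells, and which cells hold these mRNAs cannot be told apart in bulk RNA, nor can fewer cells of a type from less RNA per cell.

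**Figure D2:**
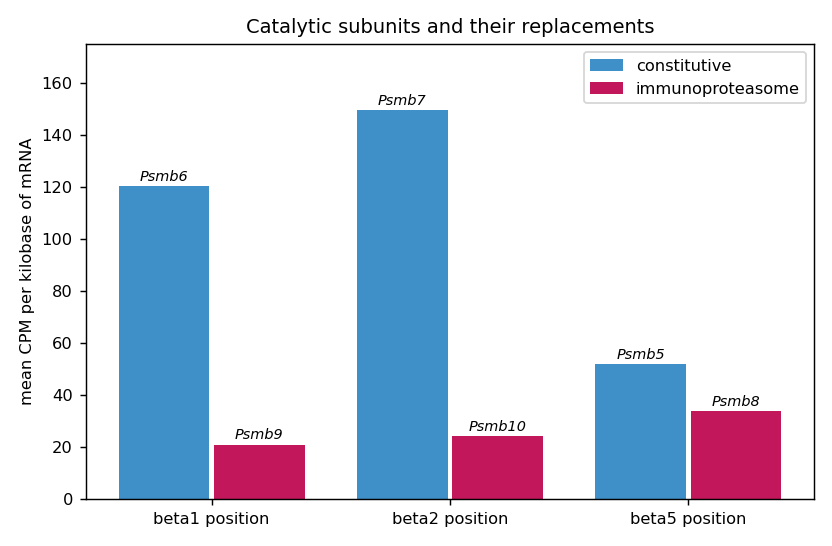
Mean CPM per kilobase of mRNA of the constitutive catalytic subunits (blue bars) and the immunoproteasome subunits that take their places (magenta bars), 1 bar per gene and no error bars because no values for single mice were given. The constitutive bar is the higher one at each position, by 5.76-, 6.17- and 1.54-fold from left to right.

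The regulatory particle was listed for 10 of the 17 genes of its ATPase and non-ATPase subunits. Psmc1, Psmd1, Psmd2, Psmd4, Psmd6, Psmd7 and Psmd12 have no row and no value here. Among the ATPases, which form the ring that unfolds substrates and feeds them into the core, the median was 56.7 CPM per kilobase. Psmc3 had 84.5, Psmc6 had 72.1 and Psmc4 had 56.7 CPM per kilobase. Psmc2 and Psmc5 were lower and, with the listed length, close to each other, at 37.5 and 34.2. With the longest annotated transcript they had 19.3 and 31.3 CPM per kilobase, and without division by length 66.9 and 43.7 CPM. Psmc3 was 2.47-fold above Psmc5.

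The non-ATPase subunits had a median of 38.3 CPM per kilobase, and 3 of the 5 lay within a narrow range with the listed length. Psmd14, the deubiquitinase that removes ubiquitin chains from substrates, had 40.7 CPM per kilobase. Psmd13 and Psmd11, scaffold subunits of the lid, had 38.3 and 36.2. Psmd8, also a lid subunit, stood above these at 96.0 CPM per kilobase. Psmd3 stood below, at 22.2, which made Psmd8 4.33-fold higher than Psmd3. With the longest annotated transcript Psmd14, Psmd13 and Psmd11 lay further apart, at 40.7, 30.1 and 21.2 CPM per kilobase. With the coding length they had 67.4, 53.1 and 49.8. All 14 core genes were above the median of the regulatory particle genes, and 0 of the 10 regulatory particle genes reached the median of the core genes. These counts were 14 and 1 with the longest annotated transcript, 13 and 0 with the coding length, and 12 and 2 without division by length. The ratio of the medians was 2.85. On the CPM scale without division by length it was 1.77, since the core mRNAs are shorter, with a median of 983 bases against 1563.5 bases.

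The chaperones that build the regulatory particle but are not part of it were lower than the subunits with the listed length. Psmd9, which assists assembly of the ATPase ring, had 11.6 CPM per kilobase. Its coding part is 666 of the 2591 listed bases, and per kilobase of coding length it had 45.04, above the subunit Psmd3 at 29.9. Psmd10 (gankyrin), another chaperone of that ring, lies on chromosome X from 137482968 to 137491267 and had 6.92 CPM per kilobase, the lowest level of all 32 genes. Psmd5, the remaining gene of this kind, has no row. Core assembly chaperones were at a similar level, with 14.2 CPM per kilobase for Psmg2, 11.2 for Psmg4 and 10.3 for Psmg3, and no row for Psmg1. These 5 chaperone genes were the 5 lowest of the 32 genes, except with the coding length, where 4 of them were and Psmd3 took the place of Psmd9. Their CPM values ran from 6.03 for Psmg4 to 29.998 for Psmd9. Pomp, a chaperone of the core particle that is itself degraded when assembly ends, was on the list of pathway genes and not a member, and had 140 CPM per kilobase, within the range of the core subunits.

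Of the activators, Psme1 and Psme2, the interferon-inducible subunits of the PA28 cap, had nearly the same level, 77.1 and 79.9 CPM per kilobase. They lie near each other on chromosome 14, Psme1 from 56196960 to 56200366 on the plus strand and Psme2 from 56206278 to 56209950 on the minus strand. The fold of Psme2 over Psme1 was 1.04, and 1.96 with the longest annotated transcripts. Psme4, the single-chain PA200 cap, lies on chromosome 11 from 30671726 to 30780361 and its annotated mRNA has 47 exons. It had the highest count level of all members, 205 CPM. Its listed mRNA has 6442 bases, however, and per kilobase it was at 31.8, below the median of every subunit group of the core and the regulatory particle. Psme2 was 2.51-fold above Psme4 per kilobase. Psme3, the nuclear PA28 subunit, and Psmf1, an inhibitor of the core particle, have no row.

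**Figure D3:**
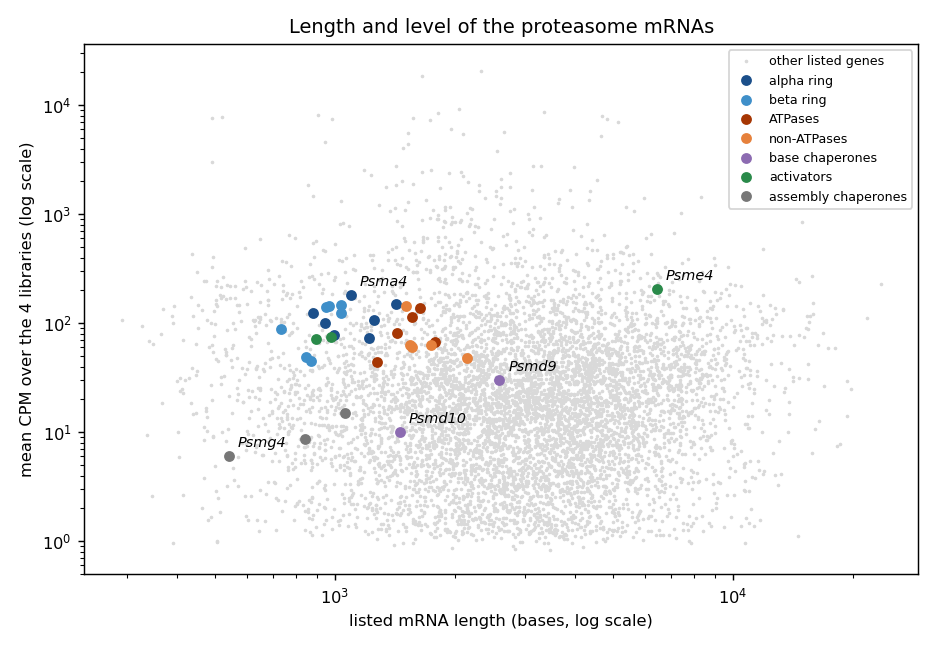
Listed mRNA length in bases (x axis, log scale) against mean CPM over the 4 libraries (y axis, log scale), with coloured points for the 32 proteasome genes by role and grey points for all other listed genes. Psme4 stands apart on the right at 6442 bases and 205 CPM, and the other members lie between 541 and 2591 bases.

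The mRNAs of the members are short, with a median of 1156.5 bases against 2959.5 bases for all listed genes, and 31 of the 32 were shorter than that median. In the annotation of NCBIM37, the members lie on 13 chromosomes. The listed length was within 10% of an annotated coding transcript for 26 of the 32. Psma2, Psmb4, Psmb6, Psmb7, Psmc6 and Psmd13 were the exceptions. Any transcript with coding bases could count as a match, and that of Psma3 has 105 of them. A match to some transcript does not fix the level. With the longest annotated transcript 7 members moved by more than 1.5 times (Psma2, Psma3, Psma7, Psmb3, Psmc2, Psmd11 and Psme1). With the coding length 7 members rose by more than 1.5 times (Psma1, Psma3, Psma5, Psmd9, Psmd10, Psmd14 and Psmg3). The coding length is shorter than the listed mRNA, so every member rose with it, and the core median went from 113 to 155 CPM per kilobase. Part of these rises is thus a change of scale shared by all members. Reads that aligned to more than 1 mRNA were not counted, so genes with near-identical copies are uncertain. RefSeq names pseudogenes of Psma5, Psmb5, Psmb6 and Psmb7, and a copy of Psme2 named Psme2b.

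**Figure D4:**
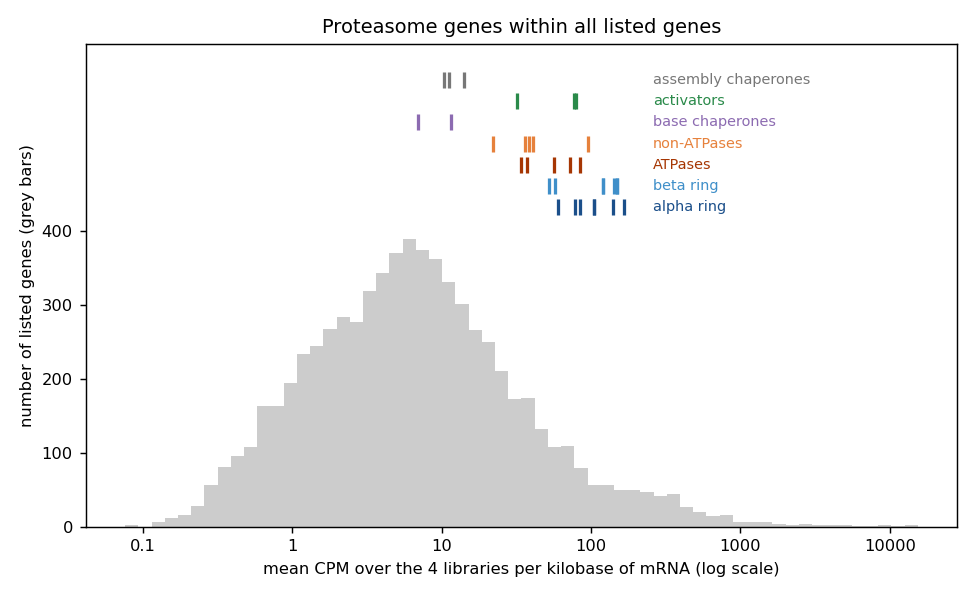
Histogram of the mean CPM per kilobase of mRNA (log scale) over all 7000 listed genes (grey bars), with coloured ticks above it for the 32 proteasome genes by role. All ticks lie to the right of the median of listed genes, 6.19 CPM per kilobase, and those of the core rings lie in its upper tail.

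Other genes of the pathway were taken from fixed lists. Of 9 other proteins that belong to, bind or assemble the proteasome, 5 were listed, Pomp among them, with a median of 45.9 CPM per kilobase. Shfm1, a small lid subunit, had 129 and Adrm1, a ubiquitin receptor, had 33.5 CPM per kilobase. Txnl1, a thioredoxin-like protein bound to the regulatory particle, had 45.9, and AI314180 (Ecm29), an adaptor that holds core and cap together, had 24.3. Of 8 shuttle factors and unfoldase genes 5 were listed, with a median of 13.1 CPM per kilobase, and Rad23b was the highest at 67.7. Nfe2l1, the transcription factor that raises proteasome genes when the protease is impaired, had 26.1 CPM per kilobase, and Ddi2, the protease that activates it, had 15.5.

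As a scale for these levels, 7 of 8 subunits of the cytosolic chaperonin, another complex with equal numbers of each subunit, had a median of 56.0 CPM per kilobase and a span of 2.51-fold. The core particle spanned 3.18-fold over 14 genes, and a span tends to grow with the number of genes. Its alpha and beta rings, with 7 genes each, spanned 2.76- and 2.88-fold. These spans are with the listed length. That of the core particle was 4.17-fold with the longest annotated transcript and 4.05-fold with the coding length. The span of the chaperonin was taken with the listed length only. The 65 listed cytosolic ribosomal protein genes had a median of 298 CPM per kilobase, above the highest of the members, Psma4 at 165. The liver label was checked with 8 hepatocyte markers, of which 5 were listed, all between 595 and 7619 CPM per kilobase. Markers of other cells were present as well. All 5 Kupffer cell markers were listed with a median of 36.8 CPM per kilobase, 3 of 4 endothelial markers with 15.1, 4 of 4 stellate cell markers with 8.44, and Ptprc, the only lymphocyte marker listed, with 3.93. Of the red cell markers 1 of 3 was listed (Alas2, 19.1 CPM per kilobase), and 0 of 3 bile duct and 0 of 2 muscle markers. A marker without a row is not shown to be absent, since the rows end at 7000 in the order of the authors' p-values. The hepatocyte markers Alb, Ttr and Cps1 had no row either. The part of other cells in the levels of the proteasome genes was not tested.

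The promoters were compared for motifs, since proteasome genes are known targets of factors that bind antioxidant response elements. RefSeq promoters (GRCm38.p6, 250 bases before to 50 bases after each start) were found for 26 of the 32 genes. Psmb1, Psmb2, Psmb7, Psmc3, Psmd3 and Psmg2 had no entry and were not searched. A gene was counted once if any of its promoters held a match. The core of the element, TGACNNNGC on either strand, was present in 5 of the 26, or 19.2%. The share was 17.4% of 5226 listed genes with a promoter and 14.0% of all 27025 genes with a promoter. The members were thus close to the share of other listed genes. The genes with a match were Psmb5, Psmb6, Psmc6, Psmd9 and Psme4. The box CCAAT on either strand was present in 9 of 26, or 34.6%, against 43.9% of the listed genes and 41.1% of all genes. It was in 6 of the 11 core genes searched and in 2 of the 8 regulatory particle genes. The GC box GGGCGG was present in 17 of 26, or 65.4%, against 67.6% of the listed genes and 38.2% of all genes. It was in 5 of the 11 core genes and in 6 of the 8 regulatory particle genes. Differences between the groups were not tested. Parts of the promoters of Psmb5 and Psmb6 are printed because these are the catalytic subunits that could be searched and both had a match to the element, which stands in capitals. The stretch of Psmb5 is chr14:54618004-54618072 on the minus strand, and that of Psmb6 is chr11:70525318-70525386 on the plus strand.
Psmb5: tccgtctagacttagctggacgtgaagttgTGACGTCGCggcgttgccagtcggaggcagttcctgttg
Psmb6: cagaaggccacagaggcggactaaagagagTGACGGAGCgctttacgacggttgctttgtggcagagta
The match begins 47 bases before the start of Psmb5 and 9 bases before that of Psmb6, and both read in the direction of the gene.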

How the data were processed

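Liver RNA of 4 mice (2 per diet) was depleted of ribosomal RNA and sequenced as 50-base single-end reads from stranded libraries. Bowtie was used by the authors to place reads on mm9 RefSeq mRNAs, reduced to 1 longest isoform per gene, with unique hits and at most 2 mismatches allowed. Genes above 1 CPM in 3 or more libraries entered the edgeR comparison by the authors. Tool versions were not given in the sources used here. Deposited log2 CPM values are the authors' means over the 4 libraries, on a log2 scale. The deposited table also holds the authors' fold changes, p-values and FDR of the diet comparison, which were not used except to see that the rows are in the order of p. A test of counts between diets had been planned, but the table has 0 columns for single mice, so no paired, replicate or left-out-mouse analysis was run.

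Here, 2 to the power of the log2 CPM was divided by the listed length in kilobases. Members and lists were chosen with earlier results of these data known. All members could be named by rule, and other genes only from fixed lists, of which some values are not reported here. Ribosomal genes were restricted to symbols with a number and at most 1 letter a, x or y, after seeing that Rps19bp1 and Rpl36al were matched. Alternative lengths were the effective length (50-base reads), the longest annotated transcript and the longest coding sequence of GENCODE vM1 on NCBIM37, which held 6786 of the listed symbols. NCBIM37 is the assembly of mm9. The arithmetic and motif search were tested on simulated data. Python 3.11.15, numpy 2.4.6, pandas 2.3.3 and matplotlib 3.10.9 were used.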

Additional observations from a re-analysis of the deposited data

How the results depend on the processing

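Of 37 recomputed values, 33 stayed within 1.5 times the reported one, and the core median stayed above that of the regulatory particle in all alternatives run. With the longest annotated transcript the median of the activators was 37.9 CPM per kilobase instead of 77.1. That of the regulatory particle was 36.0 with the same length. With the coding length that of the assembly chaperones was 19.03 instead of 11.2. The coding length, being shorter, raised the core median as well, to 155 from 113. With the longest annotated transcript the core median was 78.4 CPM per kilobase and the ratio of core to regulatory particle was 2.18. Chosen after seeing the data, mean CPM not divided by length gave a ratio of core to regulatory particle of 1.77 instead of 2.85, and leaving out the chaperones Psmd9 and Psmd10 lowered the span of Psmc and Psmd genes from 13.9-fold to 4.33-fold. With at least 10 CPM required, Psmg3 and Psmg4 were the only members to drop out, and 28 members lay above the median. The values of the core, the regulatory particle and the activators could not change under this filter, and they are counted among the 33. The effective length lies close to the listed length, so its 8 values could hardly move, and they are counted as well. The number of members above the median was 32 with each of the 3 other lengths and 28 without division by length. With the longest annotated transcript Psma2, not Psmb5, was the lowest core gene, at 37.3 CPM per kilobase. Depth per library and the spread between mice were not analysed here, so the precision of every level is unknown. Normalization, filters, tests and left-out mice of the planned diet comparison were not run.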
